A study of Homo sapiens with 9 samples.

Results

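Untreated SKOV3 cells were described by the absolute level of their messenger RNAs. SKOV3 is an established human ovarian carcinoma line, and 3 of the 9 RNA sequencing libraries of the study came from cells labelled control. The other libraries, labelled Carbo and Carbo+COM33, were not used, and no treatment was compared here. All cells were grown in RPMI 1640 medium with fetal bovine serum and antibiotics. The labels do not say what the control cells received in place of the drugs, at what time they were harvested, or whether the 3 replicates were separate cultures. Every SD below is therefore a spread between libraries that may be technical (n = 3 throughout), and no test was made because a single group is described.

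SKOV3 is widely used as a model of ERBB2-amplified ovarian cancer. Ovarian carcinomas are epithelial tumours, and many of them keep transcription factors of the Müllerian duct, the embryonic source of the fallopian tube and uterus, such as PAX8 and SOX17. Carcinoma lines often combine such epithelial genes with mesenchymal ones, and commonly lose tumour suppressor transcripts through deletion or promoter methylation, neither of which RNA counts can show. A level is given in FPKM, fragments per kilobase of exon scaled to the library's total count, as the mean ± SD over the 3 control libraries. A gene was called expressed at a mean of 1 FPKM or more and silent under 0.1 FPKM.

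The 3 libraries held 14484867, 14869356 and 14525682 counts over 32378 genes. Of these, 13192 were expressed and 3459 had no count in any control library. Among 17083 protein-coding genes, 11060 (64.7%) were expressed and 3309 (19.4%) were silent, 734 of them with 0 counts. None of the 32378 genes had 0 counts in all 9 libraries of the study. These shares therefore cover only genes read in some library, and the numbers of unread genes are not complete. The coding median was 3.42 FPKM, 254 coding genes reached 100 FPKM and 14 reached 1000 FPKM. Control 1 stood apart from the other libraries: among 4825 genes of 10 FPKM or more it was the library farthest from the nearer of the other two in 53.0%, against 19.0% for control 2 and 27.9% for control 3. Its part in a level is visible only where values per library are given, and a mean alone does not show it. The median coefficient of variation of those 4825 genes was 6.50%. Removing control 1 left 13232 expressed genes.

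The 13 mitochondrially encoded genes, which make subunits of the respiratory chain, were the most abundant group and held 12.9% ± 1.48 of all FPKM. MT-CO1, a subunit of cytochrome c oxidase, stood first at 6222 FPKM, followed by MT-CO3 at 5040 and MT-CO2 at 5012. Together these 13 genes took 3.06% ± 0.363 of the counts, because their transcripts are short and FPKM divides by length. The first nuclear genes were FTH1 and FTL, the heavy and light chains of the iron store ferritin. The FTH1 level is uncertain because 62.4% of its exon bases are shared with BEST1, whereas FTL shares none. FTH1 measured 3158, 2310 and 2353 FPKM in control 1, 2 and 3. FTL measured 2950, 2353 and 2237 FPKM in the same order. Control 1 was the highest for both, and the pair held 2.14% ± 0.36 of all FPKM.

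Below ferritin came genes of translation, the cytoskeleton and protein folding. EEF1A1, the elongation factor that brings aminoacyl-tRNA to the ribosome, reached 1168 ± 62.1 FPKM, and EEF2, which moves the ribosome along, 490 ± 19.9 FPKM. All 22 translation factors with a value were expressed (64.7% of coding genes were), and 83 cytosolic ribosomal protein genes held 4.01% ± 0.304 of all FPKM. TMSB10, an actin monomer-binding peptide, measured 1433, 1129 and 868 FPKM. The calcium-binding S100A6 measured 1297, 850 and 757 FPKM. Both were highest in control 1 and lowest in control 3. Of 40 actin cytoskeleton and annexin genes 39 were expressed (97.5%, against 64.7% of coding genes), led after these by ACTG1 (gamma actin) at 870 FPKM and S100A11 at 579 FPKM. HSPA5, the chaperone BiP of the endoplasmic reticulum, measured 991, 713 and 659 FPKM, and HSP90AB1, the constitutive cytosolic HSP90, 490, 506 and 532 FPKM. MTATP6P1, listed at 979 FPKM, is a nuclear copy of MT-ATP6, so the split of reads between those genes is uncertain.

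**Figure D1:**
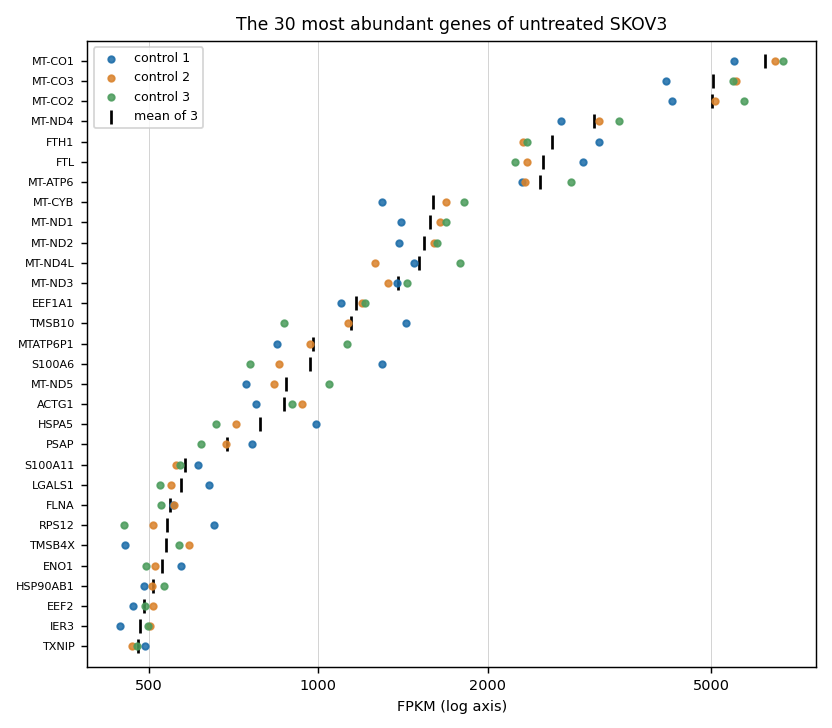
FPKM (log axis) of the 30 genes with the highest mean, 1 dot per control library and a bar at the mean. MT-CO1 leads at 6222 FPKM, and control 1 lies lowest for MT-CO1, MT-CO2 and MT-CO3 and highest for FTH1, FTL and S100A6.

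These 30 genes held 19.8% ± 0.842 of all FPKM, the top 100 held 27.5% ± 0.659, and 756 genes held 50%. PSAP, the precursor of lysosomal saposins, followed at 689 FPKM, LGALS1 (galectin 1) at 569 FPKM and the actin crosslinker FLNA at 544 FPKM. The list closed with the glycolytic enzyme ENO1 at 526 FPKM, the early-response gene IER3 at 482 FPKM and TXNIP, an inhibitor of thioredoxin, at 479 FPKM.

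The CpG content of promoters went with the level of the gene. RefSeq gives a single promoter, 250 bases before to 50 after the start on GRCh38.p14, for 9440 of the 17083 coding genes. Their median number of CpG dinucleotides was 25 in 300 bases. By level, the median was 5 for 394 genes with 0 counts, 9 for 1327 counted genes under 0.1 FPKM and 18 for 1413 genes from 0.1 to 1 FPKM. Expressed genes had more: 26 for 3595 genes from 1 to 10 FPKM, 29 for 2580 genes from 10 to 100 FPKM, and 29 for 131 genes at 100 FPKM or more. The letters TATAAA, searched on the gene's own strand with their first base 40 to 20 bases before the start, stood in 3.07% of the 9440 promoters. Their share was 9.39% at 0 counts, 6.56% for counted genes under 0.1 FPKM, 4.46% from 0.1 to 1 FPKM, 1.34% from 1 to 10 FPKM, 1.51% from 10 to 100 FPKM, and 12.2% (16 genes) at 100 FPKM or more. The share with these exact letters was thus high at both ends, while the CpG number separated low from high. No CpG methylation was measured.

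**Figure D2:**
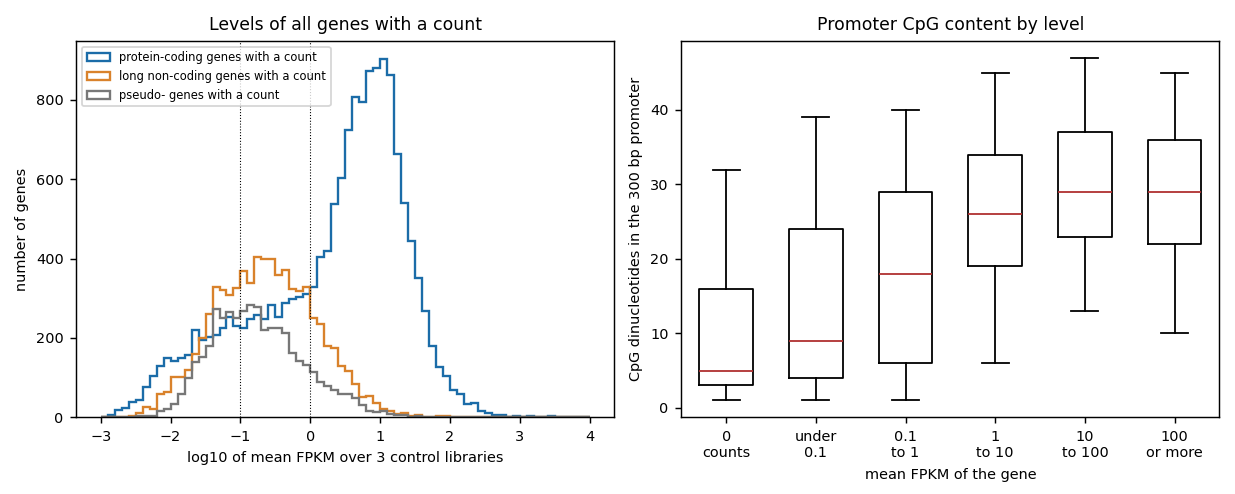
Left, number of genes by log10 of mean FPKM for protein-coding, long non-coding and pseudogenes with a count (dotted lines at 0.1 and 1 FPKM). Right, CpG dinucleotides in the 300-base promoter by level of the gene (box, quartiles; whiskers, 5th to 95th percentile), where the median goes from 5 at 0 counts to 29 at 100 FPKM or more.

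The 250 bases before the start are printed for 5 genes that show the combinations found: abundant with a TATAAA box and few CpG (CXCL8, 259 FPKM), abundant with both (EEF2), abundant and CpG-rich with no TATAAA match (S100A6), almost unread although CpG-rich (TIMP3, 0.00987 FPKM), and CpG-poor and low (ALB, 0.183 FPKM). They are from RefSeq on GRCh38.p14, 5′ to 3′ on the gene's strand, and capitals mark each CG and the TATAAA box. CXCL8 lies at chr4:73740319-73740568 on the plus strand, EEF2 at chr19:3985464-3985713 on the minus strand, S100A6 at chr1:153535992-153536241 on the minus strand, TIMP3 at chr22:32801455-32801704 on the plus strand and ALB at chr4:73404037-73404286 on the plus strand.
CXCL8: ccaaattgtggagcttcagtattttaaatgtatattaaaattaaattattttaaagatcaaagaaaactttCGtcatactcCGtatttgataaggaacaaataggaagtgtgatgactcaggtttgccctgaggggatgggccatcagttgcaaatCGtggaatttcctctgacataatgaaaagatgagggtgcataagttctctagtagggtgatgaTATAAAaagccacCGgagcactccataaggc
EEF2: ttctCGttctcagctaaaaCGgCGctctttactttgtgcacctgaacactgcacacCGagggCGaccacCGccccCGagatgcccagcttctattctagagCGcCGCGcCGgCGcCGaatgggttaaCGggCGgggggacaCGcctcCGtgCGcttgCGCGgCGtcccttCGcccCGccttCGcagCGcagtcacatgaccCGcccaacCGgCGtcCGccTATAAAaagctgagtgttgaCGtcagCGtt
S100A6: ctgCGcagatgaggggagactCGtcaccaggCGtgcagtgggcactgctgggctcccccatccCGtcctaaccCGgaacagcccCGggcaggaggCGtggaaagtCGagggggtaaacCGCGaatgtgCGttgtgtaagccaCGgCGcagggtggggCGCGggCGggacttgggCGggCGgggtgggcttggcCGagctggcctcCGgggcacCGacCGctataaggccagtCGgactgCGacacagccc
TIMP3: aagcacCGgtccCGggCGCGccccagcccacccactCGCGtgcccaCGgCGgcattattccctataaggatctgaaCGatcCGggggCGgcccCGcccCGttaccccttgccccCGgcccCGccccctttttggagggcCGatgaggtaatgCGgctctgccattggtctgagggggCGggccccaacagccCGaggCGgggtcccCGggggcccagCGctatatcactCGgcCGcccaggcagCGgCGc
ALB: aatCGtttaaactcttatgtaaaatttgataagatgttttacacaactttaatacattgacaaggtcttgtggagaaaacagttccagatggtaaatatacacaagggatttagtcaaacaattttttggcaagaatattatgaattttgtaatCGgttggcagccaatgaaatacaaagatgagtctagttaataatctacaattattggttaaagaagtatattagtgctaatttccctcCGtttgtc
In the 250 printed bases CXCL8 had 4 CpG, EEF2 31, S100A6 24, TIMP3 26 and ALB 3. The box began 31 bases before the start in CXCL8 and 30 bases before it in EEF2. Only the exact letters TATAAA were searched, and S100A6 reads tataag in the same region. TIMP3, an inhibitor of matrix proteases, had 1, 1 and 0 counts, whereas its relative TIMP2 measured 101, 126 and 128 FPKM. A CpG-rich promoter therefore stood before a gene with almost no reads in all 3 libraries.

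Genes of the Müllerian lineage were expressed in part. Of 23 Müllerian and ovarian carcinoma markers with a value, 12 were expressed, 52.2% against 64.7% of all coding genes. PAX8, the transcription factor most used to recognise Müllerian tumours, measured 64.6, 44.3 and 45.4 FPKM, with control 1 the highest. SOX17, its partner in that lineage, measured 17, 15.9 and 15.1 FPKM. MSLN, which encodes the surface protein mesothelin, measured 42.6, 47.2 and 43.7 FPKM, and MECOM, a transcription factor often amplified in ovarian cancer, 20.7, 28.4 and 30.1 FPKM. Several markers of serous carcinoma were low. WT1, a factor of serous carcinoma and mesothelium, had 20, 27 and 21 counts (0.376 ± 0.0571 FPKM), and WFDC2, which encodes HE4, 10, 18 and 14 counts (0.691 ± 0.188 FPKM). MUC16, the gene of the CA125 antigen, had 18, 37 and 33 counts and, with its very long transcript, 0.0457 ± 0.0152 FPKM.

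Epithelial and mesenchymal genes were both among those expressed. Of 38 epithelial markers 25 were expressed (65.8%), a share near the 64.7% of all coding genes, and of 34 mesenchymal markers 19 (55.9%), below it. CLDN1, a tight junction claudin, measured 338, 345 and 377 FPKM. Among keratins, the filaments of epithelia, KRT80 averaged 203 FPKM, KRT19 155 FPKM, KRT7 74.7 FPKM, KRT8 58.2 FPKM and KRT18 42.3 FPKM. KRT7 was lower in control 1 (52.3 FPKM) than in control 2 (85.1 FPKM) and control 3 (86.9 FPKM). EPCAM, an epithelial adhesion protein, measured 6.93, 9.26 and 7.6 FPKM. CDH1, the gene of E-cadherin, had only 1, 2 and 6 counts. It was 1 of 6 silent epithelial markers (19.4% of coding genes were silent). The others were KRT20 (0.0859 FPKM), ST14 (0.0684 FPKM), RAB25 (0.0406 FPKM), KRT5 (0.0265 FPKM) and OVOL1 (0.00596 FPKM). A further 7 lay between 0.1 and 1 FPKM, among them CDH3 (0.427 FPKM), ESRP1 (0.192 FPKM) and GRHL1 (0.115 FPKM).

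On the mesenchymal side, VIM (vimentin) measured 121, 136 and 140 FPKM, although 24.4% of its exon bases are shared with VIM-AS1. CDH2, the gene of N-cadherin, measured 12.7, 14.3 and 15.6 FPKM. The repressors of E-cadherin SNAI2 and ZEB1 averaged 50.3 ± 3.9 and 11.3 ± 0.753 FPKM, while SNAI1 averaged 0.419 FPKM. LOXL2, a collagen crosslinking enzyme, stood at 126 FPKM, S100A4 at 117 FPKM and the collagen chain COL5A1 at 96.7 FPKM. Of the list 9 genes were silent, among them the fibroblast genes COL3A1 (0.0101 FPKM), DCN (0.0443 FPKM), FAP (0.0195 FPKM) and THY1 (0.0536 FPKM).

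Markers of blood, endothelium, and liver, gut and kidney were mostly near 0. The counts below are read against the 64.7% of all coding genes that were expressed. None of 16 blood and immune markers was expressed, with a summed level of 0.963 to 1.24 FPKM per library, and PTPRC, the pan-leukocyte CD45, had 0, 5 and 4 counts. Of 12 endothelial markers only SOX18 was expressed (1.28 FPKM), the sum lay between 2.28 and 2.41 FPKM, and PECAM1 had 2, 4 and 2 counts. None of 9 liver, gut and kidney markers was expressed in mean, with a sum of 1.21 to 1.72 FPKM, and TTR and APOA1 had 0 counts. CUBN, the highest of the 9, measured 0.749, 0.856 and 1.02 FPKM, and PAX2, UMOD and LRP2 were not analysed here. Among 14 nerve and muscle markers MBP (5.18 FPKM) and MAP2 (3.5 FPKM) were expressed, the sum lay between 9.83 and 11 FPKM, and the glial GFAP averaged 0.366 FPKM. Besides MSLN, UPK3B at 1.01 ± 0.491 FPKM was the only one of 11 mesothelial markers at 1 FPKM or more. Of 10 genes of ciliated fallopian tube cells 3 were expressed, the widely expressed tubulin TUBB4B at 139 FPKM, CAPS at 6.68 FPKM and CCDC78 at 2.05 FPKM, while FOXJ1, the master factor of ciliated cells, had a single value above 0 (0.102 FPKM in control 2).

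HOX genes, which encode position along the body axis, were read mainly from a single cluster. Of the 10 HOXB genes 9 were expressed (90%), against 2 of 10 HOXA, 1 of 7 HOXC and 3 of 9 HOXD genes. Among all coding genes 64.7% were expressed. HOXB9 measured 62.1, 68 and 68.5 FPKM, HOXB7 36.1, 40.4 and 39.6 FPKM, and HOXB2 27.5, 33.3 and 32.5 FPKM. The ranges of these 3 genes did not overlap. HOXB1 had 0 counts, which allows up to 0.0276 FPKM for 3 counts over the 3 libraries. In the HOXD cluster, HOXD9 (13.5 ± 2.63 FPKM), HOXD8 (9.97 ± 1.46 FPKM) and HOXD13 (3.77 ± 0.763 FPKM) stood above their neighbours, of which HOXD10 averaged 0.466 FPKM and HOXD12 0.0341 FPKM. HOXA genes ranged from 0.133 FPKM for HOXA7 to 1.31 FPKM for HOXA3. HOXA9, HOXA10 and HOXA11, which pattern the Müllerian duct, averaged 0.173, 0.589 and 0.196 FPKM, and 27%, 26.3% and 31.1% of their exon bases are shared with antisense genes. In the HOXC cluster HOXC9 reached 1.78 ± 0.242 FPKM, and HOXC4, HOXC6, HOXC10, HOXC11 and HOXC13 were silent.

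**Figure D3:**
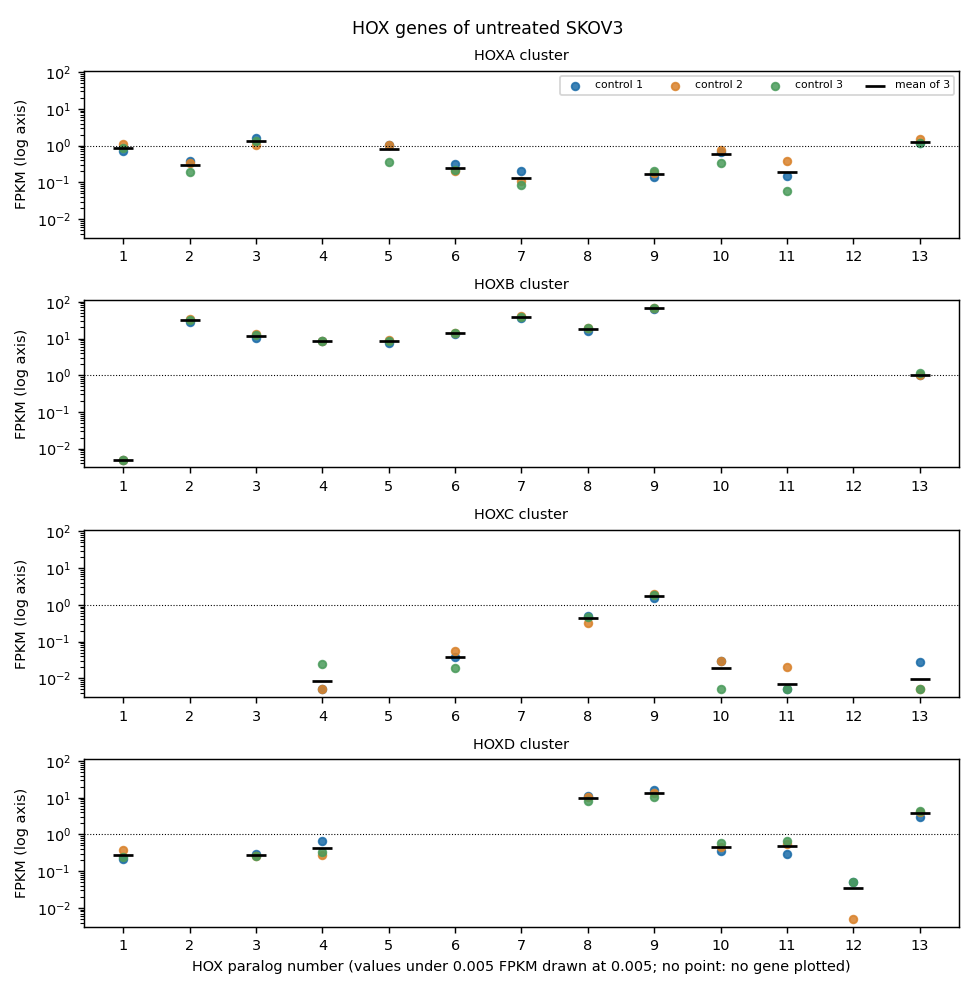
FPKM (log axis) of HOX genes by paralog number in each cluster, 1 dot per control library and a bar at the mean. HOXB genes from HOXB2 to HOXB9 lie between 7.41 and 68.5 FPKM, and only HOXD8, HOXD9 and HOXD13 of the other clusters exceed 2 FPKM in mean.

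Tumour suppressor genes were mostly expressed. Of 68 with a value 59 were expressed (86.8%, against 64.7% of coding genes), 5 lay between 0.1 and 1 FPKM, and 4 were silent (19.4% of coding genes were). The median of the list was 5.96 FPKM, against 3.42 FPKM for all coding genes. CDKN2A, CDKN2B, OPCML and GATA4 were not analysed here. The highest were KLF6, a zinc finger factor (115 ± 15 FPKM), TFPI2, a protease inhibitor (72.8 ± 19.1 FPKM), VHL, the ubiquitin ligase subunit for HIF (63.2 ± 1.47 FPKM), CDKN1A, the CDK inhibitor p21 (56.3 ± 11.1 FPKM), and the receptor TGFBR2 (34.8 ± 3.22 FPKM). TFPI2 was lowest in control 1, at 51.1 FPKM against 80.3 and 87 FPKM.

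The 4 silent genes had few reads. CDH1, already given, averaged 0.0333 ± 0.0296 FPKM. FHIT, a hydrolase gene across a common fragile site, had 3, 1 and 0 counts over the libraries. PEG3, an imprinted zinc finger gene, had a single count. DAB2, an endocytic adaptor often lost in ovarian cancer, had 7, 16 and 8 counts (0.0911 ± 0.0421 FPKM). Without control 2 it stayed silent, and without control 1 or control 3 the number of silent genes was 3. Just above the threshold lay DIRAS3, an imprinted GTPase gene often lost in ovarian cancer, with 10, 1 and 6 counts and 0.191 ± 0.153 FPKM.

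Of the 8 nearest coding genes with a value on either side of the silent ones 4 were expressed (50%, against 64.7% of all coding genes). Coding genes without a value were passed over, so these need not be the direct neighbours. PTPRG, next to FHIT, had 1014, 1008 and 1044 counts, and C3orf67 on its other side averaged 0.591 ± 0.0383 FPKM. TANGO6, next to CDH1, had 305, 338 and 312 counts, whereas CDH3 on the other side (the gene of P-cadherin) averaged 0.427 FPKM. ZIM2, which shares its promoter region and exon sequence with PEG3, had a single count as well, and ZNF264 farther on had 854, 830 and 758 counts. DAB2 lies between C9, with 0 counts, and TTC33, with 341, 286 and 260 counts.

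Other suppressors known from ovarian carcinoma were transcribed, which does not show whether a message is intact. RB1 averaged 21.7 ± 2.87 FPKM, ARID1A 12.1 ± 0.294 FPKM, BRCA1 9.76 ± 1.62 FPKM and BRCA2 2.62 ± 0.282 FPKM. Within 3 Mb of CDKN2A, a stretch of chromosome 9 that tumours often delete, 18 coding genes had a value. MTAP, the closest with many reads, measured 2.31, 2.65 and 2.43 FPKM, KLHL9 averaged 8.56 ± 0.355 FPKM and RPS6 127 FPKM. On the far side DMRTA1 had 11, 6 and 6 counts. Of the interferon genes in that stretch, IFNE had 45, 69 and 93 counts and IFNB1 17, 19 and 10 counts.

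**Figure D4:**
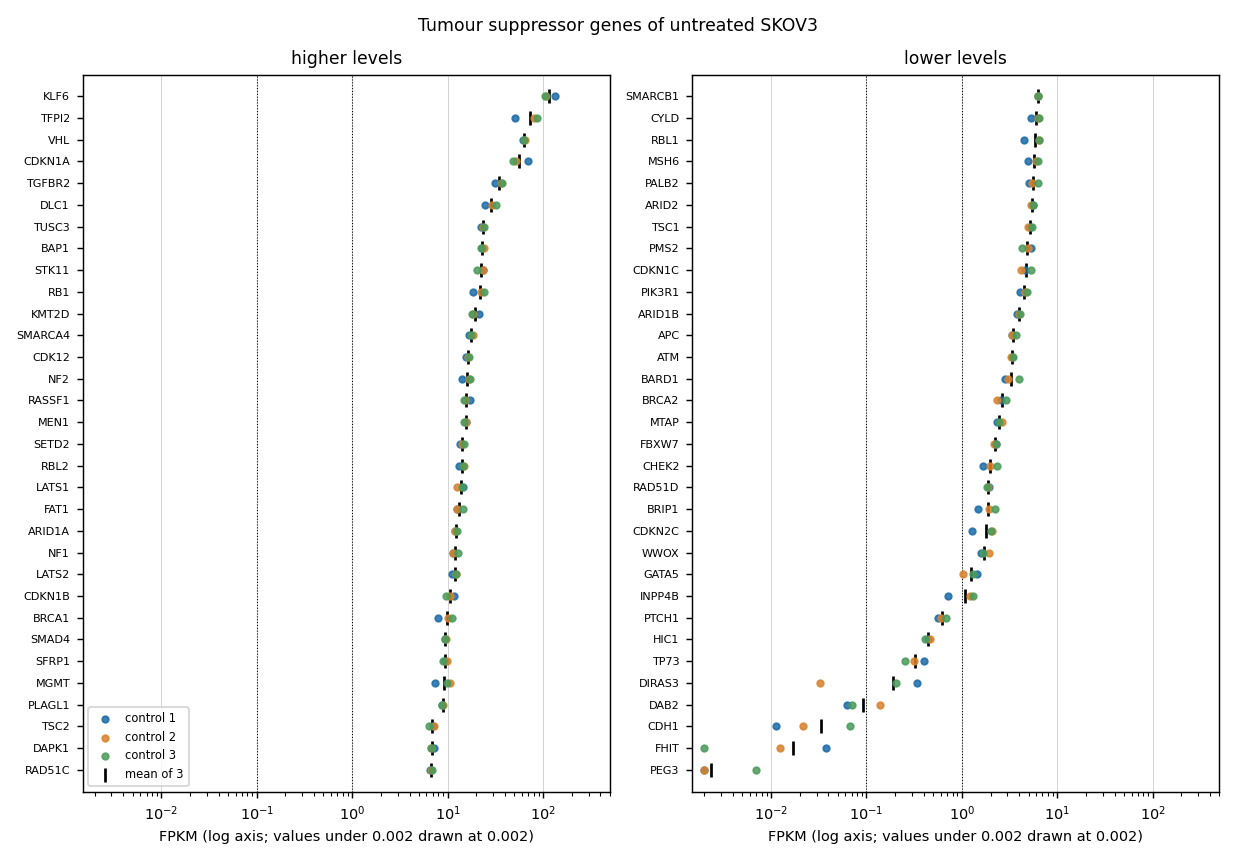
FPKM (log axis) of tumour suppressor genes in rank order, continued in the right panel, 1 dot per control library and a bar at the mean; dotted lines mark 0.1 and 1 FPKM. KLF6 leads at 115 FPKM, and DAB2, CDH1, FHIT and PEG3 have means under 0.1 FPKM.

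Among 32 oncogenes with a value 25 were expressed (78.1%, against 64.7% of coding genes). ERBB2, the receptor HER2, led at 227 ± 7.93 FPKM, ahead of the survival genes MCL1 (95.5 ± 1.77 FPKM) and BCL2L1 (89.8 ± 7.4 FPKM) and of MYC (60 ± 5 FPKM). MCL1 and BCL2L1 overlapped in range, and BCL2, their relative, averaged 0.899 FPKM. Of the exon bases of BCL2L1, 43% are shared with other genes, ABALON foremost. Cyclin D genes were uneven: CCND1 averaged 29.9 ± 3.1 FPKM and CCND3 4.51 FPKM, and CCND2 had 0 counts, which allows up to 0.00955 FPKM. The RAS genes NRAS and HRAS averaged 45.8 and 33.7 FPKM.

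ERBB2 ranked at position 70 of all genes. Its counts were 32792, 36095 and 34026. Because this stretch of chromosome 17 is gained together with ERBB2 in many tumours, its neighbours were read as well, a choice made after their values were seen. Of 27 coding genes starting within 500 kb, 20 were expressed and 15 reached 10 FPKM. Each of these 3 counts includes ERBB2 itself. Among all coding genes 64.7% were expressed and 27.5% reached 10 FPKM. MIEN1, which overlaps the end of ERBB2, averaged 134 ± 0.324 FPKM, PGAP3 on its other side 70 ± 3.59 FPKM, STARD3, a cholesterol transporter, 58.3 ± 3.46 FPKM, and MED1, a subunit of Mediator, 45 ± 1.41 FPKM. GRB7, an adaptor that binds ERBB2, averaged only 4.45 ± 0.678 FPKM although it lies just beyond MIEN1. RPL19, a ribosomal protein gene of this stretch, had the highest level, 340 ± 26.7 FPKM. Copy number was not measured.

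Receptor tyrosine kinases, which carry growth signals across the membrane, were fewer and uneven. Of 58 members 23 were expressed (39.7%, against 64.7% of coding genes) and 19 were silent (19.4% of coding genes were), with a median of 0.392 FPKM. ERBB2 measured 219, 235 and 227 FPKM, above every other member in each library. AXL, the receptor for GAS6, measured 121, 101 and 99.7 FPKM, and EPHA2, an ephrin receptor, 84.9, 97.9 and 96.8 FPKM. AXL lay above EPHA2 in each library, but its lowest value differed from the highest of EPHA2 by less than the SD of either. MET, the receptor for HGF, measured 43.2, 42.3 and 42.5 FPKM, PTK7, a catalytically inactive WNT co-receptor, 40.2, 43.6 and 40.3 FPKM, and EGFR 32.4, 29.1 and 31.7 FPKM. MET and PTK7 overlapped in range, and EGFR lay below both.

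Next in order came RYK (16.6 FPKM), MST1R (14.6 FPKM), FGFR1 (14.1 FPKM), DDR1 (12.7 FPKM) and EPHB4 (11.1 FPKM), of which FGFR1 was highest in control 1 at 17 FPKM. In 9 of the 22 neighbouring pairs of expressed receptors the ranges overlapped. ERBB3, the usual partner of ERBB2, had 29, 18 and 17 counts (0.162 ± 0.0519 FPKM), and ERBB4 had 0, 6 and 0 counts. The silent members included the PDGF receptors PDGFRA (0.0116 FPKM) and PDGFRB (0.0161 FPKM), the CSF1 receptor CSF1R (0.0664 FPKM), the nerve growth receptors NTRK2 and NTRK3 (0.00225 and 0.00172 FPKM), the vascular receptors TIE1, TEK and FLT1 (0.082, 0.00958 and 0.00357 FPKM), and FLT3 (0.00552 FPKM). Among ephrin receptors EPHA1, EPHA4, EPHA5, EPHA7 and EPHA8 were silent, and EPHA3 had 0 counts, which allows up to 0.0102 FPKM. MUSK (0.0108 FPKM), ROR2 (0.0197 FPKM) and ERBB4 were silent as well.

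Nuclear receptors, which turn lipid ligands into gene regulation, stayed at moderate levels. Of 44 with a value 23 were expressed (52.3%, against 64.7% of coding genes) and 10 were silent (19.4% of coding genes were), with a median of 1.07 FPKM. The highest, RXRB, a shared partner of many members, measured 24.1, 24.1 and 22.7 FPKM. The clock repressors NR1D2 and NR1D1 averaged 21.4 ± 1.13 and 18.2 ± 0.497 FPKM, the orphan receptor NR2F6 18.6 ± 1.53 FPKM and the oxysterol receptor NR1H2 16.8 FPKM. In 15 of 22 neighbouring pairs the ranges overlapped, so the order among them is loose. The highest steroid receptor was NR3C1, the glucocorticoid receptor, at 11.3, 10.9 and 10.9 FPKM. ESR1, oestrogen receptor alpha, had 65, 82 and 83 counts (0.378 ± 0.0475 FPKM), and ESR2 averaged 0.129 FPKM. Silent members were NR2F1 (0.0955 FPKM), RARB (0.0805 FPKM), NR1I3 (0.0692 FPKM), NR5A1 (0.0599 FPKM), NR1I2 (0.0252 FPKM), NR0B2 (0.0194 FPKM) and RORB (0.00234 FPKM), and ESRRG and NR5A2 had 0 counts. PGR was not analysed here.

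**Figure D5:**
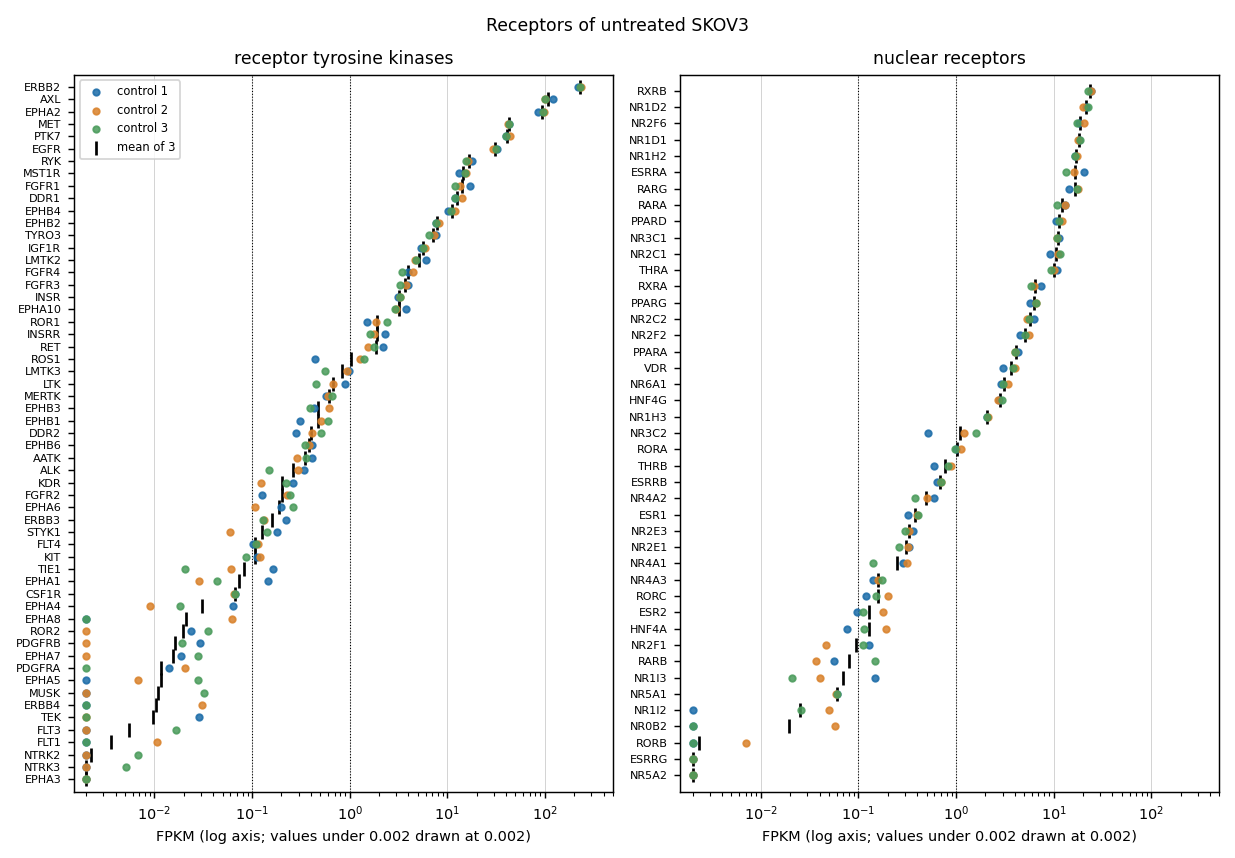
FPKM (log axis) of receptor tyrosine kinases (left) and nuclear receptors (right) in rank order, 1 dot per control library and a bar at the mean; dotted lines mark 0.1 and 1 FPKM. ERBB2 lies at 227 FPKM, and the highest nuclear receptor, RXRB, at 23.6 FPKM.

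Of 38 cytokine and interferon receptors 20 were expressed (52.6%, against 64.7% of coding genes) and 12 fell under 0.1 FPKM (19.4% of coding genes did), the uncertain IFNAR2 included. OSMR, the oncostatin M receptor, measured 40.1, 39.1 and 40.4 FPKM, IL13RA1 averaged 30.6 ± 0.555 FPKM, and IL6ST, the shared chain gp130, 26.3 ± 1.07 FPKM. IFNGR1 averaged 21.6 ± 4.1 FPKM and IFNAR1 9.29 ± 0.467 FPKM. IFNAR2, the partner of IFNAR1 in the type I interferon receptor, had 9, 0 and 3 counts, but 83.2% of its exon bases are shared with the readthrough gene AP000295.1, so its level is uncertain. The other 11 under 0.1 FPKM, led by CSF1R and CSF2RA (0.0594 FPKM), are GHR, IL1RL1, IFNLR1, IL2RG, CSF3R, PRLR and IL10RA, all at 0.0206 FPKM or less, and IL20RA and IL13RA2 with 0 counts.

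The counts of other receptor families are read against the same shares, 64.7% expressed and 19.4% silent. Of 11 members of the TNF receptor family, death receptors among them, 8 were expressed (72.7%). The highest were TNFRSF12A, the TWEAK receptor (195, 192 and 181 FPKM), and TNFRSF10B, a receptor for TRAIL (106, 91 and 86 FPKM). FAS averaged 1.55 ± 0.0913 FPKM, and TNFRSF11B and TNFRSF1B were silent (0.0565 and 0.0488 FPKM). Of 14 TGF-beta superfamily receptors 9 were expressed (64.3%), TGFBR2 foremost, followed by ACVR1 (14.4 FPKM) and BMPR2 (13 FPKM), and ACVR1C, BMPR1B and the anti-Müllerian hormone receptor AMHR2 were silent (0.0894, 0.0724 and 0.0129 FPKM). Of 18 WNT and NOTCH receptors 13 were expressed (72.2%), with FZD2 (30.6 FPKM), FZD6 (28.9 FPKM) and NOTCH2 (21.6 FPKM) first, and NOTCH3, NOTCH4 and the stem cell marker LGR5 silent (0.0899, 0.0798 and 0.0345 FPKM). Of 40 G protein-coupled receptors 16 were expressed (40%) and 14 were silent. Their highest levels were those of the adhesion receptor ADGRG1 (21.8 FPKM), the protease-activated receptor F2RL1 (19.9 FPKM) and GPRC5A (16.9 FPKM). The silent ones were ADORA1, ADORA2A, ADRB1, BDKRB1, BDKRB2, CCR7, LPAR6, PTGER2, PTGER3, PTGFR, S1PR1 and S1PR3, from 0.00832 to 0.0981 FPKM, and LHCGR and LPAR4 with 0 counts.

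Of 27 surface proteins used as antibody targets 17 were expressed (63%, near the 64.7% of coding genes). F3, tissue factor, measured 248, 323 and 335 FPKM and was lowest in control 1. L1CAM, an adhesion molecule, measured 161, 185 and 177 FPKM, and CD24 averaged 82.3 ± 4.25 FPKM. FOLR1, the folate receptor alpha, was lowest in control 1, with 30, 125 and 150 counts (a mean of 4.21 ± 2.62 FPKM). MUC16, CDH6 (0.0202 FPKM), SLC34A2 (0.0137 FPKM), VTCN1 (0.00741 FPKM), CEACAM5 (0.00687 FPKM) and PROM1 (0.00309 FPKM) were silent.

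Of 64 secreted factors and matrix genes 55 were expressed (85.9%, against 64.7% of coding genes) and 40 reached 10 FPKM, a level that 27.5% of coding genes reached. CXCL8, the neutrophil chemokine interleukin 8, measured 255, 247 and 275 FPKM, and the related chemokine CXCL1 198, 202 and 206 FPKM. LAMB3, a chain of laminin 332, averaged 214 ± 4.03 FPKM and the urokinase gene PLAU 126 ± 10.9 FPKM. Of the exon bases of PLAU, 31.1% are shared with other genes, C10orf55 foremost. IL6 measured 31.6, 30.3 and 40.4 FPKM and LIF, another gp130 cytokine, 68, 65.8 and 67 FPKM. CCL2 had 0 counts, which allows up to 0.0344 FPKM, and the protease genes MMP9 and MMP3 were silent (0.0194 and 0.0448 FPKM).

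Ligands were then set beside their receptors in 29 pairs, chosen after the levels had been seen. In 14 pairs both genes were expressed, in 9 the ligand alone, in 5 the receptor alone and in 1 neither. Among all coding genes 64.7% were expressed, and no such share was computed for pairs. Pairs with both included GAS6 (14.1 ± 3.95 FPKM) with AXL, EFNA1 (13.9 ± 1.55 FPKM) with EPHA2, TGFA (16.1 ± 0.148 FPKM) with EGFR, FGF2 (182 ± 30.8 FPKM) with FGFR1, LIF with LIFR (4.37 ± 0.457 FPKM), TGFB1 (41.7 ± 6.14 FPKM) with TGFBR2, and JAG1 (13.8 ± 1.04 FPKM) with NOTCH2. IL1A, an alarmin cytokine, was high at 203 ± 21.1 FPKM and its receptor IL1R1 stood at 3.05 ± 0.542 FPKM.

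In the pairs with a ligand alone, CSF1 averaged 36.2 ± 3.43 FPKM with CSF1R silent. VEGFA averaged 77.9 ± 10.2 FPKM with KDR at 0.202 FPKM and FLT1 silent, while its co-receptor NRP1 stood at 31.6 ± 2.2 FPKM. PDGFA (4.69 FPKM) and PDGFB (6.43 FPKM) were expressed with their receptors silent, and NRG1 (8.99 ± 2.82 FPKM) with ERBB3 at 0.162 FPKM. In the other direction MET was expressed and HGF had 0 counts, OSMR was expressed with OSM at 0.17 FPKM, IGF1R was expressed (5.66 ± 0.241 FPKM) with IGF1 at 0.00276 FPKM, and TNFRSF12A stood at 190 FPKM with its ligand TNFSF12 at 0.521 ± 0.0384 FPKM. TNFSF12 shares 33.2% of its exon bases with a readthrough gene, and IGF2, also in these pairs with 0 counts, shares 75%, so both are uncertain. RNA levels do not show whether a ligand is released or a receptor reaches the surface, and serum in the medium holds growth factors.

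Of 20 glycolysis genes 18 were expressed (90%, against 64.7% of coding genes). ENO1 measured 571, 514 and 495 FPKM, GAPDH averaged 258 ± 4.52 FPKM, PKM 213 FPKM, and LDHA, a subunit of lactate dehydrogenase, 170 ± 14.1 FPKM. The exceptions were LDHB, the other main subunit, with 16, 9 and 12 counts (0.283 ± 0.0839 FPKM), and ALDOA, with 46, 21 and 26 counts (0.543 ± 0.237 FPKM). ALDOA shares 53.5% of its exon bases with AC093512.2, a gene model that overlaps it, and LDHB shares 33.4% with AC010197.2. The same holds for MIF (0.619 FPKM, 61.9% shared with MIF-AS1), for the translation factor EIF4A1 (1.69 FPKM, 48.6% shared with AC016876.2) and for the macrophage marker CD68 (0 counts, 85.8% shared). Counting programs commonly set aside reads that fit overlapping genes, and the setting is not given in the sources used here, so the levels of these genes are uncertain, as is that of IFNAR2. They are kept in the counts of their lists: ALDOA and LDHB are the glycolysis genes not called expressed, IFNAR2 is among the silent cytokine receptors and CD68 among the immune markers. HOXA7, HOXD1, HOXD3, HOXD4, ADORA2A and IL2RG, with 50.8% to 80.5% of their exon bases shared, are uncertain in the same way.

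Over all coding genes, overlap of exons went with low values only where it was large. Of 95 genes with over 90% of their exon bases shared, 77.9% were silent and 1 was expressed. Of 494 genes from 50 to 90%, 35.6% were silent. Of 2729 genes from 10 to 50%, where LDHB and EIF4A1 lie, 12.8% were silent and 69.2% were expressed. Among 9170 genes with no overlap, 22.9% were silent and 61.9% were expressed. The part of overlap in the level of LDHB was not tested. CDH1, FHIT and DAB2 share 5.62%, 0% and 1.54% of their exon bases with other genes. PEG3 shares 12.9%.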

How the data were processed

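The authors deposited, per the file headers, whole-number read counts per gene and FPKM values per gene for every library. The deposited FPKM divide each count by exon length and by library total. Poly-A RNA was selected with poly-T beads and libraries were made with an NEBNext Ultra kit, per the labels' protocols. HISAT2, HTSeq 0.11.2 and DESeq2 1.26.0 on GRCh38 are named, per the submitters' processing notes, without settings, so the use of strand is not given in the sources used here. All 32378 identifiers and names matched GENCODE 29, which gave positions, exons and gene types.

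Levels are means ± SD of the deposited FPKM of the 3 control libraries. No test was fitted. Correlations used log2(FPKM + 0.1). A count of 0 was read as up to 3 counts summed over the 3 libraries, and such limits cover counting error only. The depth was 14484867 to 14869356 counts per library. Exon overlap was computed from GENCODE 29 on either strand. Promoters were matched to RefSeq by symbol, leaving out symbols with several entries.

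The genes named are the 30 most abundant, the 3 to 5 highest members of each list, silent tumour suppressors, receptors and HOX genes, defining markers of cell types, the 10 most variable genes of 10 FPKM or more, and coding genes within 3 Mb of CDKN2A. Further members are named as relatives or neighbours and were chosen with their values known. Some genes of the lists enter the counts and are not reported here by name. Members and lists were chosen with earlier results of these data known. The alternatives were TPM, TMM scaling, CPM without length, other thresholds and pseudocounts, and leaving out each replicate. Calculations used Python 3.11.15 with pandas 2.3.3 and numpy 2.4.6, and figures matplotlib 3.10.9. The functions were tested on simulated data.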

Additional observations from a re-analysis of the deposited data

How the results depend on the processing

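Of 49 values recomputed under another setting, 37 stayed within the limits set for them and 12 did not. The TPM scale gives every library the same sum, and its values were higher here (MT-CO1 at 26052 TPM against 6222 FPKM). A cutoff of the same number is therefore a lower one on that scale. On the TPM scale 1960 coding genes and 2 tumour suppressors were silent, in place of 3309 and 4. With 0 counts in all 3 libraries as the rule, 734 and 0 were. For numbers of genes the limits were wide, and values within them also changed. Expressed genes numbered 18492 on the TPM scale and 15144 by at least 10 counts in every library, in place of 13192. On the TPM scale 32 receptor tyrosine kinases and 30 nuclear receptors were expressed, in place of 23 of each. The top 100 genes held 15.78% of all CPM without length and 17.82% of FPKM without mitochondrially encoded genes, in place of 27.48%, and 18 and 19 of the 30 most abundant genes were kept. By at least 10 counts in every library, 37 receptor tyrosine kinases were expressed, in place of 23. The lowest correlation across genes between control libraries was 0.9677, with 0.9895 at a pseudocount of 1 FPKM, 0.9751 over expressed genes alone, and 0.9677 to 0.9712 when a library was left out. Apart from the libraries left out, these settings by construction move the threshold, the scale or the genes included. Leaving out a library gave 13188 to 13232 expressed genes and 3298 to 3311 silent coding genes. Depth limits the silent class: at these totals a gene with a few counts cannot be ordered against another. No paired analysis was possible because a single group is described and no result comes from a test.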

Other observations

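Long non-coding RNA genes, 8696 in all, held 2.94% ± 0.0719 of all FPKM, and 1393 of them were expressed. Among all genes of every type 40.7% were expressed. NORAD, an RNA that binds Pumilio proteins, measured 118, 101 and 102 FPKM. MALAT1, a nuclear RNA, measured 105, 71.4 and 80.1 FPKM, and NEAT1, the scaffold of paraspeckles, 77.6, 63.6 and 61.3 FPKM. Control 1 was the highest for all of these. SNHG1 averaged 71.1 FPKM and GAS5 67.8 FPKM, both host genes of small nucleolar RNAs. AC008736.1 (101 FPKM), LINC02522 (96.1 FPKM) and LINC02582 (90.2 FPKM) stood among the 4 highest. Of 17 germ cell and cancer-testis genes PRAME (5.08 ± 0.514 FPKM) and POU5F1 (2.44 ± 0.0773 FPKM) were expressed (11.8%, against 64.7% of coding genes), and 9 had 0 counts. Reads of POU5F1 and its processed copies in the genome can be confused, so its value is uncertain.

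Between the 3 untreated libraries, 15 of the 4825 genes of 10 FPKM or more differed by over 2 times. The largest ratio of highest to lowest library was 4.37, for CYP24A1, the vitamin D catabolic enzyme, with 204, 761 and 895 counts in control 1, 2 and 3. THBS1, the matrix protein thrombospondin 1, followed with 761, 2614 and 2587 counts, EDN1 (endothelin 1) with 541, 1293 and 1570 counts, and TGFBI, a matrix protein, with 4510, 11815 and 11193 counts. QPRT had 293, 733 and 670 counts and IL18 478, 1004 and 1084 counts. In the opposite direction S100A2 had 4144 counts in control 1 against 2041 and 1749. The remaining genes of the 10 were AC023157.2, AC117402.1 and AC010332.1. Control 1 was the odd library in 8 of these 10, lower in 7 and higher in 1. Transcripts under 1000 bases (217 genes) had a median log2 difference of 0.16 in control 1 and of -0.12 in control 3 from the mean of the other libraries, and transcripts over 60% GC of -0.10 in control 3 (809 genes). The part of these differences in the results was not tested.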
